A study of Mus musculus with 12 samples.

Results

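P53-/- embryonic stem cells (ESCs) kept in 2i were compared with wild-type (WT) ESCs kept in the same medium, by RNA-seq of cells sorted in the G1 phase. The comparison rests on 4 libraries, 2 labelled P53-/- and 2 labelled WT, out of the 8 libraries in the deposited table and the 12 samples of the series. It covers 24840 gene symbols of the 24881 in the table, since 41 Y-linked symbols were left out. Of these, 1294 are genes of small RNAs (small nucleolar RNAs, microRNAs and the like), described apart, and 23546 are other genes.

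The cells are mouse R1 ESCs that carry the FUCCI reporter, a pair of fluorescent proteins whose levels follow the cell cycle and by which G1 cells were sorted. 2i is serum-free N2B27 medium with LIF and inhibitors of MEK (PD0325901) and of GSK3 (CHIR99021), and the other culture of the study is serum with LIF. P53-/- cells were made with CRISPR/Cas9 guides against an exon of Trp53 that its transcripts share, and the study names 2 clones for RNA-seq. Which clone gave which library is not in the column names, so library numbers are names only, and p-values measure the spread between these libraries.

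P53 is a transcription factor held low in resting cells by the ubiquitin ligase MDM2. When stabilised it binds pairs of a short half-site in DNA and activates genes for cell cycle arrest, apoptosis, DNA repair and metabolism. Among them is Cdkn1a, whose product P21 inhibits cyclin-dependent kinases and so keeps the pocket proteins RB1, RBL1 and RBL2 in their repressive state on E2F and DREAM target genes.

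The depth behind the values is known only from the spacing of low values, which gave about 9700000 and 5300000 fragments for the P53-/- libraries and 7900000 and 5200000 for WT, up to a factor common to all. Values are FPKM, that is fragments scaled by the length of the transcript and by the mapped fragments of the library. Small RNA genes held 92.4% to 93.8% of each library's FPKM sum. Their lengths, near or below the fragment length, make their FPKM unstable, and through the division by length this is not their share of fragments. The median within-group SD of a gene was 0.14 (P53-/-) and 0.18 (WT) on the log2 scale. ESC genes were high in all 4 libraries (Pou5f1 at 782 and 735 FPKM in P53-/- and 982 and 860 in WT). Of 15 fibroblast genes, 5 were listed at 0 in each of them, among them Col1a2, Dcn and Postn, and 12 were under 1 FPKM in each. The highest was Fbln1, with a mean of 14.1 FPKM, and the list summed to 21.4 and 23.1 FPKM in P53-/- and 19.2 and 21.2 in WT.

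Trp53 itself was at 7.25 and 1.88 FPKM in the libraries labelled P53-/- and at 26.8 and 33.7 in WT, without overlap. It fell by 2.98 on the log2 scale (SE 0.74, adjusted p = 0.0547, limma). The P53-/- libraries differed several-fold from each other, and the call was made in 9 of 15 other settings of the analysis. An edited exon need not remove the transcript.

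A total of 12368 genes other than small RNAs passed a mean of 0.5 FPKM over the 8 libraries and were tested with limma on log2(FPKM + 0.1). Some of them passed through their serum libraries and were under 0.5 FPKM in 2i. Fold changes are on that scale and understate the change of low genes. Calls needed a fold change above 1.5 together with an adjusted p below 0.1. In P53-/- cells 749 genes were lower (6.06% of those tested) and 540 were higher (4.37%). In all of them the P53-/- and WT libraries did not overlap, as in 54% of all tested genes, so that a lack of overlap adds nothing to a call. The lower genes moved further, with a median log2 fold change of -1.21 against 0.84 for the higher genes and 0.03 over all genes. Changes over 4-fold were found for 134 lower and 41 higher genes. The median lower gene was at 6.05 FPKM in WT and 2.41 in P53-/-, and the median higher gene at 7.74 and 14.9. Fitted on the 4 2i libraries alone, without the serum libraries to share the spread, 134 genes were lower and 52 higher. Of the 169 genes that the rule for named genes selects, 58 were called in that fit and 48 in every setting tried.

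**Figure D1:**
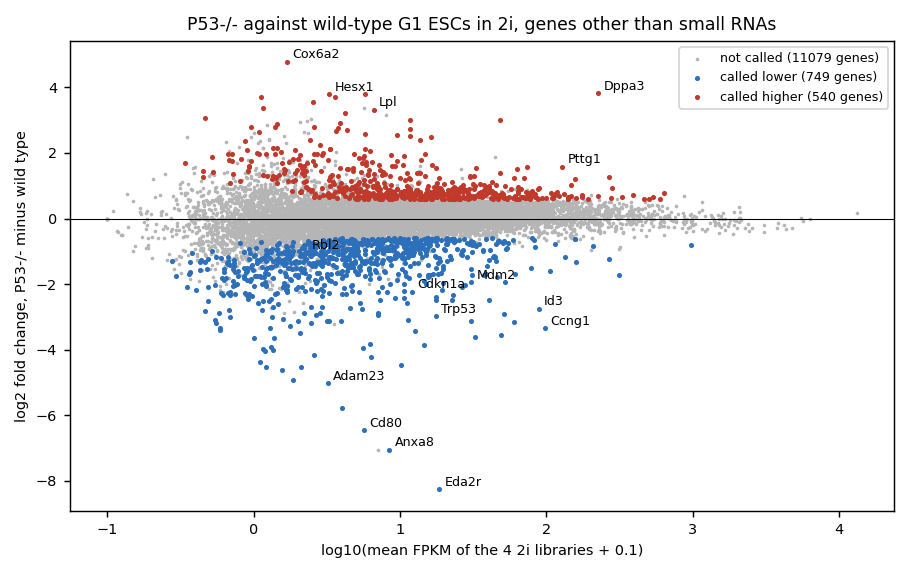
Each point is a gene other than a small RNA, with the log10 mean FPKM of the 4 2i libraries on the horizontal axis and the log2 fold change of P53-/- minus WT on the vertical axis. The 749 genes called lower reach a log2 fold change of -8.25 (Eda2r), and the 540 called higher reach 4.77 (Cox6a2).

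Known P53 targets were grouped in 5 lists. Of their 96 tested members, 43 fell (44.8%, against 6.06% of all genes) and 2 rose (2.08%, against 4.37%), with a median log2 fold change of -0.44. The lists are textbook targets, and they were compiled with results of these data in view. In the fit of the 2i libraries alone 27 members were called lower, and leaving out 1 library at a time left 33 to 39.

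The promoter sequences of a few genes that fell hold letters close to the element P53 reads. Cdkn1a, Ccng1 and Zfp365 are in the target lists, and Rps27l, Cd80 and Ms4a10 are not and were chosen after their values were seen. Below are 60-base stretches of RefSeq promoters (GRCm38.p6, gene strand, 5′ to 3′), with the pair of adjoining 10-base P53 half-sites in capitals. All of these genes hold the pair with at most 2 mismatches outside its invariant C and G and were lower in P53-/- cells. Pid1, Capg and Ckap2 also hold such a pair, each with 2 mismatches, and are not shown. Their log2 fold changes were -1.60, -1.12 and -0.85.
Cdkn1a: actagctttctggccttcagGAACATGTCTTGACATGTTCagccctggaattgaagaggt
Ccng1: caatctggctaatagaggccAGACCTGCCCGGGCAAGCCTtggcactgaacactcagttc
Rps27l: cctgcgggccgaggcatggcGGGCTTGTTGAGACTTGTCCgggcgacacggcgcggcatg
Zfp365: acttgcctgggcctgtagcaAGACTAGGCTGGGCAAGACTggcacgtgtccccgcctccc
Cd80: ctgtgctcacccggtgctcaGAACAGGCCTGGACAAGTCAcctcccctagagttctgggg
Ms4a10: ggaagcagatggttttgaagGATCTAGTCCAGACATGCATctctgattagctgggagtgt
The Cdkn1a stretch is chr17:29090908-29090967 on the plus strand, and its pair, with 1 mismatch, starts 51 bases before an annotated start, which need not be the main one. The Ccng1 stretch is chr11:40755442-40755501 (minus strand, 1 mismatch) and starts its pair 195 bases before an annotated start. The Rps27l stretch, chr9:66946276-66946335 (plus strand, 1 mismatch), lies 117 bases before 1 start and in an intron of a longer transcript. Those of Zfp365 (chr10:67912686-67912745, minus strand) and Ms4a10 (chr19:10974761-10974820, minus strand) lie upstream of the genes, and that of Cd80 (chr16:38458802-38458861, plus strand) in an intron of another Cd80 transcript, each with 2 mismatches.

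Such a pair was found in the promoters of 4 of 37 P53 targets called lower and of 0 of 41 not called, against 0.471% of the 9762 tested genes with a promoter. A promoter here is 250 bases before to 50 after a start, and the pair reads alike on both strands. Over all genes it was in 10 of 573 called lower (1.75%), 3 of 432 called higher (0.694%) and 33 of 8757 not called (0.377%). Only 78.9% of the tested genes and 76.5% of the lower genes had a promoter in the table, so these shares are void as a check over all genes and are given as a description. A match is a description of letters and not a measured binding site.

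Genes that feed back on P53 were among the members that fell. Of 12 tested, 6 fell (50%, against 6.06% of all genes; 5 in the 2i libraries alone) and 0 rose. Ccng1, cyclin G1, was at 17.1 and 17.5 FPKM in P53-/- cells and at 158 and 198 in WT (log2 fold change -3.35, SE 0.16, adjusted p = 3.86e-05). Trp53inp1, a nuclear protein that assists P53, was at 12.8 and 11.3 against 102 and 114 FPKM. The P53 inhibitors Mdm2 (log2 fold change -1.94) and Mdm4 (-2.17) fell as well.

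Arrest genes made up the list with the largest share of falls, 11 of 18 (61.1%; 7 in the 2i libraries alone), and 1 member rose. Cdkn1a was at 3.56 and 4.64 FPKM in P53-/- cells and at 23.9 and 15.9 in WT (log2 fold change -2.24, SE 0.22, adjusted p = 0.00218). The antiproliferative gene Btg2 was at 5.98 and 6.35 against 54.2 and 54.7 FPKM, and Psrc1, a spindle protein, at 4.99 and 4.48 against 46.3 and 74.9. Zmat3, an RNA-binding P53 effector, and Plk2, a kinase of the polo family, had log2 fold changes of -2.69 and -2.48. Gadd45b rose by 0.70 (adjusted p = 0.0629), a call made in 7 of 15 other settings. Gadd45a had a log2 fold change of 0.35 and was not called (adjusted p = 0.231).

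Of 22 apoptosis targets, 10 fell (45.5%, against 6.06% of all genes; 6 in the 2i libraries alone) and 0 rose. The BH3-only gene Bbc3, which encodes PUMA, was at 0.697 and 0.476 FPKM in P53-/- cells and at 9.54 and 11.4 in WT (log2 fold change -3.96, SE 0.28, adjusted p = 0.000394). Phlda3, an inhibitor of AKT, was at 6.77 and 8.31 against 73.4 and 108 FPKM. Bax, the effector that permeabilises mitochondria, was at 84.9 and 81.2 against 202 and 170, a smaller log2 fold change of -1.16. Pmaip1, which encodes NOXA, was at 2.46 and 3.89 against 4.87 and 2.53, with overlapping libraries and no call.

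Of the DNA repair targets, 4 of 18 were lower (22.2%, against 6.06% of all genes) and 0 higher, with a median log2 fold change of 0.04. In the 2i libraries alone 2 were lower, and with 1 library left out 2 to 3. The 4 were Mgmt, which removes alkyl groups from guanine, the translesion polymerase gene Polk, the stress gene Ddit4 and the excision nuclease gene Ercc5. Their log2 fold changes were -2.08, -1.90, -1.27 and -1.03. The call on Mgmt (adjusted p = 0.0937) was made in 7 of 15 other settings. Whether this list differs from the others was not tested.

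Of 28 metabolic and stress targets, 13 fell (46.4%, against 6.06% of all genes; 8 in the 2i libraries alone) and 1 rose (3.57%, against 4.37%). The member that rose, Kitl, had a mean of 0.238 FPKM in 2i, under the 0.5 filter, and passed it through its serum libraries. Ephx1, an epoxide hydrolase, was at 1.91 and 1.64 FPKM in P53-/- cells and at 24.2 and 29.9 in WT (log2 fold change -3.85, SE 0.23, adjusted p = 0.000173). The carnitine palmitoyltransferase gene Cpt1c was at 0.482 and 1.05 against 11.2 and 12 FPKM. Dcxr, a xylulose reductase, and Tap1, a peptide transporter of antigen presentation, had log2 fold changes of -2.47 and -2.03. Tigar, at 41.2 and 34.8 against 49.0 and 36.2 FPKM, and the glutaminase gene Gls2, at 7.50 and 7.53 against 9.31 and 7.60, were not called (adjusted p = 0.609 and 0.541).

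Rises outnumbered falls among the mitosis genes. Of 81 genes of mitosis and the spindle checkpoint, 25 rose (30.9%, against 4.37% of all genes) and 3 fell (3.7%, against 6.06%), with a median log2 fold change of 0.43. Pttg1, which encodes securin, was at 229 and 151 FPKM in P53-/- cells and at 82.5 and 47.7 in WT (log2 fold change 1.57, SE 0.31, adjusted p = 0.0292). Ccna2, cyclin A2, was at 61.5 and 59.2 against 28.8 and 30.4 (log2 fold change 1.03, SE 0.10, adjusted p = 0.0022). The centromeric histone gene Cenpa rose by 1.23 and the mitotic kinase gene Pbk by 1.0. Kifc1, a minus-end kinesin gene, Ckap2 and the APC/C activator gene Fzr1 fell, with log2 fold changes of -0.83, -0.85 and -0.60, and the call on Fzr1 was made in 4 of 15 other settings. Cdk1 was at 34.0 and 30.5 against 28.9 and 25.0 FPKM and Top2a at 85.4 and 60.9 against 65.5 and 77.4, and neither was called.

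The rises among mitosis genes were about 1.5-fold to 3-fold. In the fit of the 2i libraries alone 3 of the mitosis genes were called higher. Without P53-/- library 1 the number was 11 and without library 2 it was 16, and over the libraries left out in turn it ran from 11 to 28. In a sorted bulk sample, more transcript per cell and a few more cells outside G1 give the same value and cannot be told apart.

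**Figure D2:**
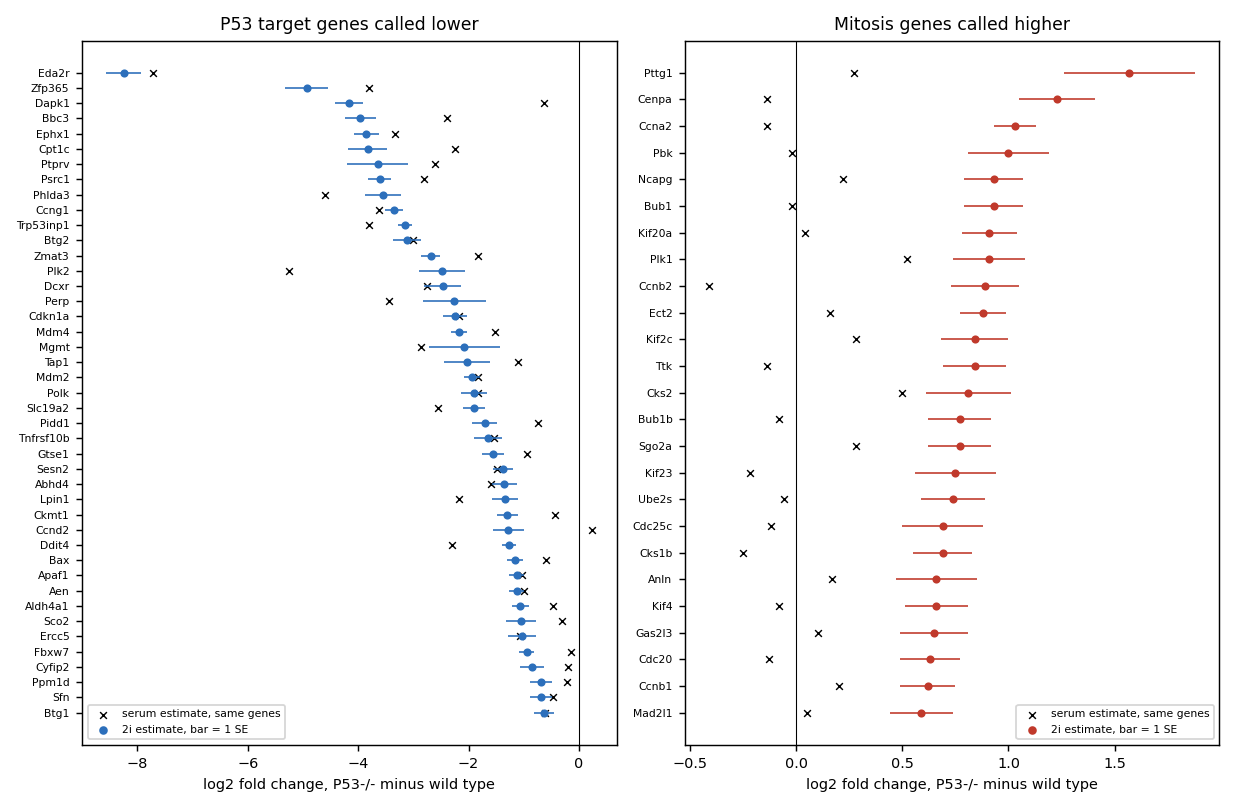
Log2 fold changes of P53-/- minus WT in 2i with bars of 1 SE (coloured points), and in serum (crosses), for the 43 P53 targets called lower in 2i (left) and the 25 mitosis genes called higher in 2i (right). Eda2r lies at -8.25 in 2i and -7.71 in serum, while Cenpa lies at 1.23 in 2i and -0.14 in serum.

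Many mitosis genes carry the CHR element, the sequence by which the DREAM complex is known to hold them down in G1. Below are stretches upstream of 3 mitosis genes called higher (GRCm38.p6, gene strand, 5′ to 3′), with the element in capitals. These genes were chosen after their values were seen, from those whose element lies outside the exons. Kif2c and Gas2l3, also called higher, have such an element too and are not shown.
Ccnb2: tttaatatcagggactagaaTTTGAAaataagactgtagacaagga
Ect2: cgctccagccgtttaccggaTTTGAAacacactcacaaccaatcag
Bub1b: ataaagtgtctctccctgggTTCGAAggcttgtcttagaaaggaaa
They are chr9:70421696-70421741 on the minus strand, chr3:27153967-27154012 on the minus strand and chr2:118598003-118598048 on the plus strand. The elements start 167 (Ccnb2), 114 or 138 (Ect2) and 188 (Bub1b) bases before an annotated start. Ccnb2, cyclin B2, was at 82.9 and 65.5 FPKM in P53-/- cells against 38.7 and 40.8 in WT, Ect2, a regulator of cytokinesis, at 31.6 and 32.7 against 16.9 and 17.9, and the checkpoint kinase gene Bub1b at 65.9 and 59.5 against 32.3 and 41.8. TTTGAA or TTCGAA on either strand was present in the promoters of 48 of 68 mitosis genes (70.6%), of 16 of the 21 that rose and of 30 of the 44 not called, against 16.1% of all promoters of tested genes. These are 76.2% of the mitosis genes that rose and 68.2% of those not called. Over all genes with a promoter it was in 21.5% of those called higher, 14.7% of those called lower and 15.9% of those not called, again as a description.

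Among genes that act before and during S phase there were fewer calls than in the mitosis list, a difference that was not tested. Of 60 genes for origin licensing and the replication fork, 4 rose (6.67%, against 4.37% of all genes) and 0 fell, with a median log2 fold change of 0.26. They were Rfc4, a clamp loader subunit (0.88), Dbf4, the partner of the CDC7 kinase (0.87), the dUTPase gene Dut (0.78) and the licensing inhibitor gene Gmnn (0.65). Mcm2 was at 75.7 and 58.7 FPKM in P53-/- cells against 84.4 and 65.3 in WT, and Pcna at 252 and 248 against 184 and 236, with no call. Of 35 genes of homologous recombination and the Fanconi pathway, 3 rose (8.57%; 0 in the 2i libraries alone) and 0 fell. They were the checkpoint kinase gene Chek1 (0.92), Nbn (0.75) and Bard1 (0.61), the last called in 7 of 15 other settings. Of 62 replication-dependent histone genes, 3 fell (4.84%, against 6.06% of all genes) and 0 rose.

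Among 21 G1 cyclins, kinases and inhibitors, 4 fell and 4 rose (19% each, against 6.06% and 4.37% of all genes; 1 each in the 2i libraries alone). Besides Cdkn1a, the inhibitor gene Cdkn2b (log2 fold change -1.32) and Fbxw7, which marks cyclin E for destruction (-0.95), fell. Ccnd2 was called lower too, at a mean of 0.178 FPKM in 2i. Cdc25a, the phosphatase that activates CDK2, was at 37.7 and 34.3 FPKM against 18.1 and 17 (log2 fold change 1.03, SE 0.14, adjusted p = 0.00774). Ccne2, cyclin E2, rose by 0.83, the CDK cofactor gene Cks1b by 0.69 and the inhibitor gene Cdkn1b by 0.60. Ccne1 was at 65.3 and 48.9 FPKM in P53-/- cells and 63.8 and 45.3 in WT, a spread within groups larger than the difference between them. Of 19 pocket protein and DREAM genes, 1 fell and 1 rose (5.26% each, near the shares of all genes; 0 in the 2i libraries alone). Rbl2 fell (1.24 and 1.57 against 2.62 and 3.33 FPKM, log2 fold change -1.03, adjusted p = 0.051) and E2f5 rose by 0.81. Rb1, at 0.391 and 0.927 against 1.44 and 1.85 FPKM, had a log2 fold change of -1.29 (SE 0.41) and an adjusted p of 0.102, just outside the threshold.

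The core genes of the pluripotency network stayed high in all 4 libraries. Nanog was at 249 and 261 FPKM in P53-/- cells against 359 and 311 in WT, Sox2 at 124 and 147 against 110 and 178, and Esrrb at 75.1 and 68.0 against 70.6 and 90.0. None of the 3 was called, nor was Pou5f1 (adjusted p = 0.213, 0.931, 0.537 and 0.309 in the order Nanog, Sox2, Esrrb, Pou5f1). Of 34 genes of core and naive pluripotency, 4 fell (11.8%, against 6.06% of all genes) and 2 rose (5.88%, against 4.37%), and 1 fell and 1 rose in the 2i libraries alone. Klf4, a naive factor downstream of LIF, was at 23.2 and 26.3 against 48.2 and 48.3 FPKM (log2 fold change -0.96, SE 0.13, adjusted p = 0.00782). Zfp57, which keeps methylation at imprints, Tbx3 and Lin28a fell, with log2 fold changes of -0.87, -0.66 and -0.91.

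Dppa3 was the most abundant of the 12 largest rises. This gene, also called Stella, encodes a maternal factor that guards DNA methylation and is expressed in naive cells. It was at 397 and 446 FPKM in P53-/- cells and at 28.1 and 31.5 in WT (log2 fold change 3.82, SE 0.35, adjusted p = 0.00158), with libraries far apart. The serum libraries of both genotypes were between 1.44 and 4.07 FPKM. The difference of the effect between cultures missed the threshold (interaction 3.13, SE 0.50, adjusted p = 0.101). Lefty1, an inhibitor of Nodal, was at 12.3 and 6.38 against 1.45 and 2.59 FPKM and rose by 2.13.

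Genes of the formative and primed states were lower in 4 of 20 cases (20%, against 6.06% of all genes) and higher in 1, and 2 were lower and 0 higher in the 2i libraries alone. Nodal, a ligand of the TGF beta family, was at 18.8 and 17.2 FPKM in P53-/- cells and at 69.0 and 48.3 in WT (log2 fold change -1.68, SE 0.19, adjusted p = 0.00411). Foxd3 was at 6.7 and 6.96 against 17.4 and 18.1, and the zinc finger gene Zic5 fell by 0.99, a call made in 4 of 15 other settings. The tight junction gene Cldn6 rose by 1.60. Otx2, at 6.85 and 7.22 against 13.5 and 5.62 FPKM, did not separate the groups.

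Of 37 tested genes of BMP, TGF beta and Nodal signalling, 7 fell (18.9%) and 3 rose (8.11%), against 6.06% and 4.37% of all genes, and 2 were lower and 0 higher in the 2i libraries alone. The target gene Id3, an inhibitor of bHLH factors, had the largest fall, from 179 and 129 FPKM in WT to 19.8 and 25.3 in P53-/- cells (log2 fold change -2.76, SE 0.18, adjusted p = 0.00028). Of its relatives, Id1 was at 7.64 and 8.85 against 9.27 and 6.02 with no call, and Id2 rose by 1.0 (adjusted p = 0.0794). The activin subunit gene Inhbb fell from 6.22 and 8.72 to 1.88 and 1.57 FPKM, and the activin antagonist gene Fst fell by 1.59. The receptor gene Tgfbr1 rose by 0.64.

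Genes of FGF-ERK feedback and the immediate early response fell in 6 of 26 cases (23.1%, against 6.06% of all genes) and rose in 2 (7.69%, against 4.37%), and 2 were lower and 0 higher in the 2i libraries alone. The AP-1 gene Fos was at 7.45 and 7.55 FPKM in P53-/- cells and at 37.0 and 39.4 in WT (log2 fold change -2.33, SE 0.34, adjusted p = 0.0096). Atf3, a stress-induced factor, was at 11.1 and 9.71 against 31.5 and 25.7. The immediate early gene Egr1 fell by 3.17, from WT libraries at 6.84 and 1.92 FPKM that differed from each other, and the ERK inhibitor gene Spry2 fell by 1.08. The ETS factor gene Etv1 and Spry1 rose by 1.21 and 0.66.

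Of 35 Wnt genes, 4 fell (11.4%, against 6.06% of all genes) and 1 rose (2.86%, against 4.37%), with 1 lower and 0 higher in the 2i libraries alone. The ligand gene Wnt6 fell from 4.38 and 6.80 FPKM to 0.460 and 0.635 (log2 fold change -3.12, adjusted p = 0.00127, limma). The antagonist genes Dkk3 and Notum and the receptor gene Fzd5 had log2 fold changes of -1.25, -1.14 and -0.74, while Fzd2 rose by 0.86. The call on Dkk3 was made in 7 of 15 other settings. Of 17 genes of the LIF and STAT3 pathway, 2 fell and 2 rose (11.8% each, against 6.06% and 4.37% of all genes). In the 2i libraries alone 2 were lower and 0 higher. The ligand gene Lif itself fell from 2.29 and 3.07 FPKM to 0.582 and 0.405, in cells that were given LIF in the medium, and the kinase gene Pim1 and the receptor subunit gene Il6st rose by 0.73 and 0.70. Of 19 Notch genes, 3 fell (15.8%), among them the target gene Hes1 (log2 fold change -0.70), and 0 rose, and 0 of them were called in the 2i libraries alone.

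**Figure D3:**
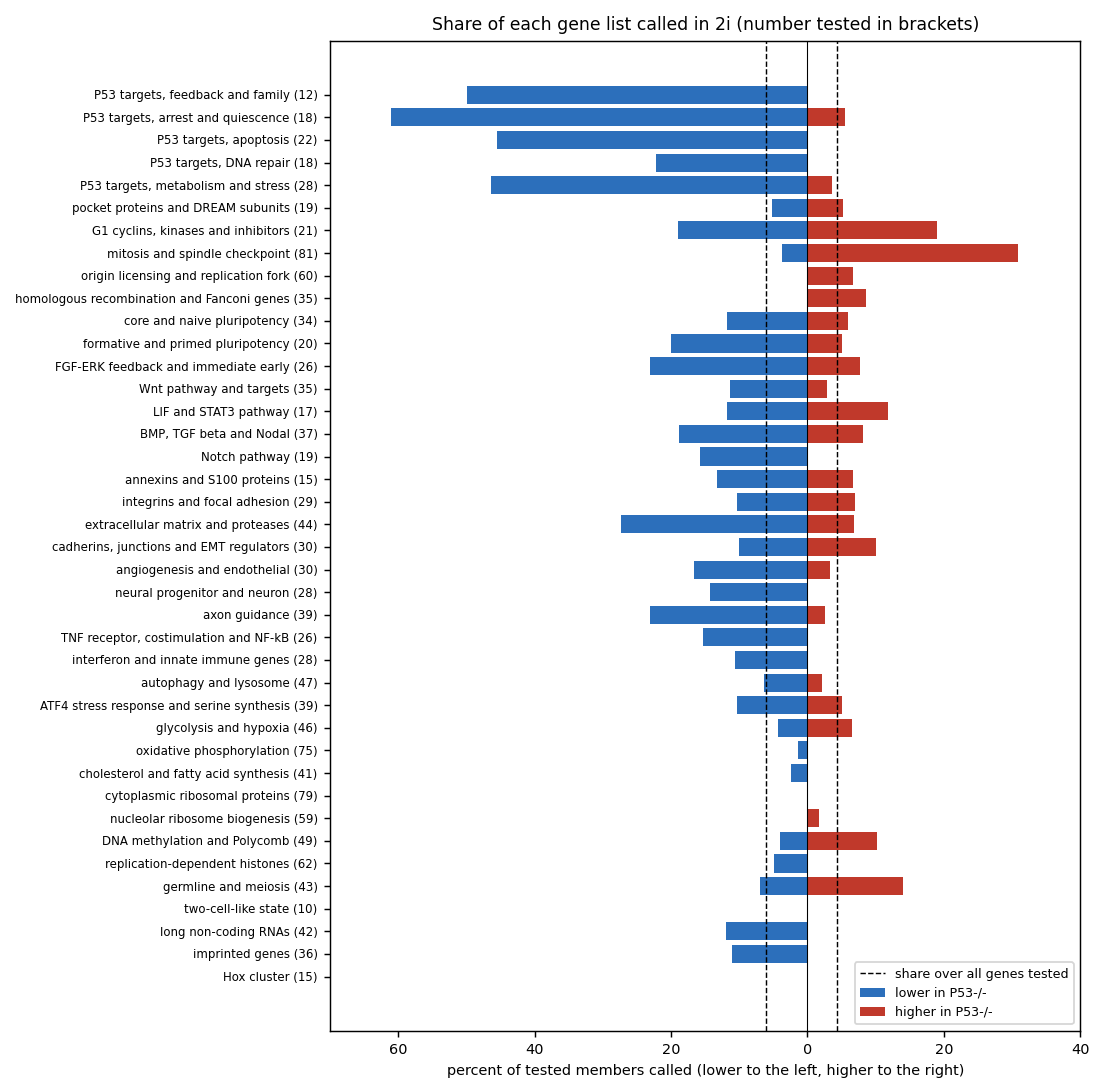
Percent of the tested members of each gene list called lower (to the left) or higher (to the right) in P53-/- cells in 2i, with the number tested in brackets and dashed lines at the shares over all genes, 6.06% and 4.37%. The arrest list reaches 61.1% lower and the mitosis list 30.9% higher, and ribosomal protein genes had no call in either direction.

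The 12 largest falls among genes with a mean of at least 1 FPKM and separate groups were Eda2r, Anxa8, Cd80, Serpine2, Adam23, Zfp365, Cpne2, Ms4a10, Ptpn14, Snx20, Ano3 and Pvt1. Eda2r, a receptor of the TNF receptor family, was at 0.0485 and 0 FPKM in P53-/- cells and at 34.4 and 39.5 in WT. Zfp365, a zinc finger gene of the DNA damage response, was at 0.0238 and 0 against 2.33 and 4.63 FPKM. Ptpn14, a tyrosine phosphatase gene, was at 0.129 and 0.0329 against 3.78 and 4.1, and fell by 4.53 (SE 0.35, adjusted p = 0.000585). Most of these genes were thus near or at 0 without P53. Ms4a10, of a family of membrane proteins, was at 1.94 and 2.53 FPKM in WT, and Ano3, an anoctamin gene, at 1.60 and 2.44, and both were listed at 0 in each P53-/- library. The copine gene Cpne2 was at 0.0455 and 0 against 2.59 and 3.20. Snx20, a sorting nexin gene, was at 1.45 and 0.406 against 19.4 and 19.2. The long non-coding RNA gene Pvt1 was at 0.527 and 0.558 against 12.6 and 11.3. When 1 instead of 0.1 was added to the FPKM, the 12 log2 fold changes ran from -5.21 (Eda2r) to -1.58 (Ano3), and 11 of the 12 were called in the fit of the 2i libraries alone, Snx20 being the exception.

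The 12 largest rises were Cox6a2, Dppa3, Hesx1, Serpina3m, Olfml1, Fcgr3, Slc22a13b-ps, Kng2, Lpl, Serpinf1, C130073F10Rik and Pdpn. Apart from Dppa3 they were mostly low in WT. Lpl, lipoprotein lipase, was at 10 and 13.6 FPKM in P53-/- cells and at 0.667 and 1.72 in WT (log2 fold change 3.32, SE 0.42, adjusted p = 0.00601). Serpinf1, a secreted serpin, was at 9.04 and 6.08 against 0.618 and 0.809, and the serpin gene Serpina3m at 14.9 and 6.10 against 1.34 and 0.240. Pdpn, podoplanin, was at 23.1 and 17 against 5.68 and 0.965. The WT libraries of several of these genes were several-fold apart. The homeobox gene Hesx1 was at 5.17 and 5.98 FPKM in P53-/- cells and at 1.57 and 0 in WT, with a call made in 7 of 15 other settings, and the Fc receptor gene Fcgr3 at 6.27 and 6.65 against 0.897 and 0.152. Cox6a2, a muscle form of a cytochrome oxidase subunit, was at 5.02 and 1.36 and listed at 0 in both WT libraries. Its call was made in 8 of the 14 other settings that tested it, with log2 fold changes from 1.91 to 8.04. The long non-coding gene C130073F10Rik was at 77.8 and 91.6 against 6.09 and 17.6. The kininogen gene Kng2 and Olfml1 reached at most 2.38 and 2.49 FPKM in the 4 libraries, and Slc22a13b-ps is a pseudogene whose reads may be shared with its parent genes. In the fit of the 2i libraries alone 3 of the 12 were called, namely Dppa3, Kng2 and Serpinf1.

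**Figure D4:**
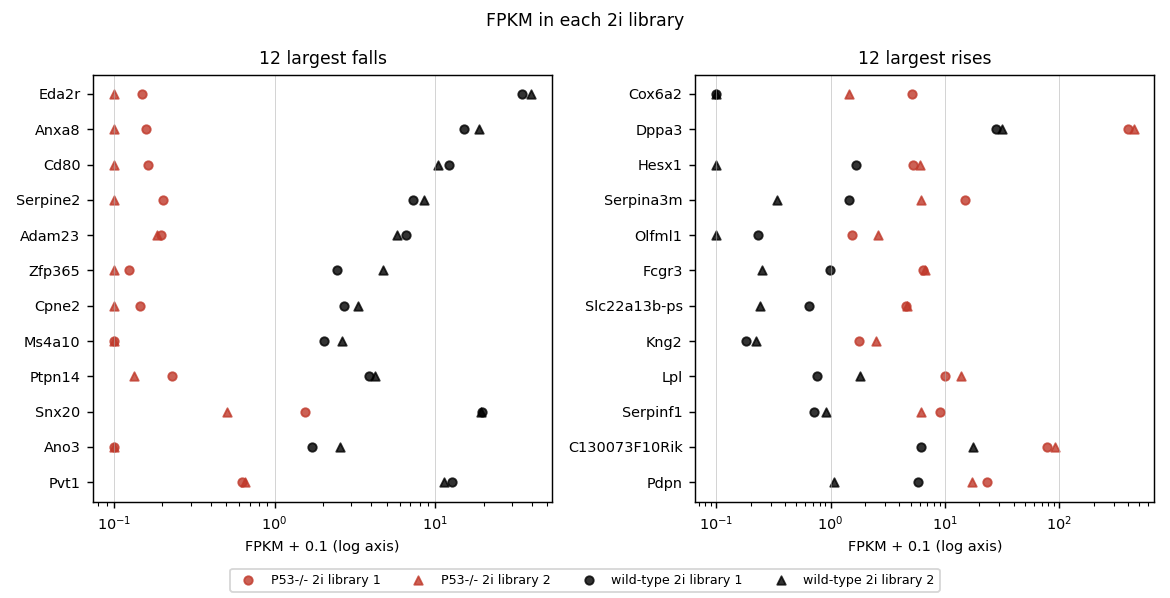
FPKM + 0.1 on a log axis in each 2i library for the 12 largest falls (left) and the 12 largest rises (right), with P53-/- libraries in red and WT in black. P53-/- and WT libraries do not overlap for any gene shown, which the choice of genes required. Dppa3 lies at 397 and 446 FPKM in P53-/- cells and 28.1 and 31.5 in WT.

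Of 44 genes for extracellular matrix and its proteases, 12 fell (27.3%, against 6.06% of all genes) and 3 rose. Serpine2, a protease inhibitor, fell from 7.21 and 8.36 FPKM to 0.103 and 0, and Plod2, which hydroxylates collagen lysines, from 17.1 and 15.2 to 4.79 and 5.44 (log2 fold change -1.64, SE 0.13, adjusted p = 0.000771). The basement membrane gene Col18a1 fell by 1.61. The fibrillar collagen gene Col11a1, the protease gene Adam19 and the collagen chaperone gene Serpinh1 rose by 1.46, 1.37 and 0.67, with the calls on Col11a1 and Serpinh1 made in 7 and 6 of 15 other settings. In the fit of the 2i libraries alone 4 members of this list were called lower. No test of the list against other genes was made. The tested primitive endoderm and primitive streak markers had median log2 fold changes of -0.81 and -0.89, and their part in the matrix and guidance results was not tested.

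Of 39 axon guidance genes, 9 fell (23.1%, against 6.06% of all genes) and 1 rose, and 2 were called lower in the 2i libraries alone. The secreted guidance cue gene Ntn1 was at 4.62 and 5.24 FPKM in P53-/- cells and at 14.6 or more in WT (log2 fold change -1.74, SE 0.18, adjusted p = 0.0022). The semaphorin gene Sema4a and the ephrin genes Efna4 and Efna3 had log2 fold changes of -2.03, -1.56 and -1.53, and the Eph receptor gene Ephb4 rose by 0.81. Of 30 angiogenesis genes, 5 fell (16.7%; 1 in the 2i libraries alone) and 1 rose. They included the receptor gene Tek (log2 fold change -2.05), the TGF beta co-receptor gene Eng (-1.80), the Eph receptor gene Epha2 (-1.29) and the hypoxia factor gene Epas1 (-0.94). Of 28 neural genes, 4 fell and 0 rose, among them the neurotrophin receptor gene Ngfr (16 and 18.1 against 7.05 and 5.46 FPKM in P53-/- cells) and the neuronal tubulin gene Tubb3 (28.8 and 26.7 against 20.7 and 15.8). The neural share was 14.3%, with 0 called lower in the 2i libraries alone and 1 to 3 with 1 library left out.

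Of 30 cadherin, junction and EMT genes, 3 fell and 3 rose (10% each, against 6.06% and 4.37% of all genes). The claudin gene Cldn3 was at 8.99 and 8.74 FPKM in P53-/- cells and at 2.78 and 2.44 in WT (log2 fold change 1.73, SE 0.31, adjusted p = 0.0205), and Epcam, an epithelial adhesion molecule, at 68.0 and 68.5 against 42.0 and 28.0. The desmosomal P53 target gene Perp fell by 2.26, and the gap junction gene Gja1 and the EMT factor gene Twist1 had log2 fold changes of -1.89 and -1.24. The call on Gja1 was made in 7 of 15 other settings. Of 29 integrin and focal adhesion genes, 3 fell (10.3%) and 2 rose (6.9%). In both lists 0 genes were called lower in the 2i libraries alone, and 0 to 3 with 1 library left out. The integrin gene Itgb1 and the adaptor gene Lims1 rose by 0.72 and 0.84, and the integrin gene Itgb7 fell by 1.42. Of 15 annexin and S100 genes, 2 fell (13.3%, against 6.06% of all genes), Anxa8 and Anxa1 (log2 fold change -0.66). S100a13 rose by 1.56 (6.67% of the list, against 4.37%), a call made in 7 of 15 other settings. In the 2i libraries alone 1 member was lower and 1 higher, and Anxa1 was not called there.

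Of 26 genes of the TNF receptor, costimulation and NF-kB list, 4 fell (15.4%, against 6.06% of all genes; 2 in the 2i libraries alone) and 0 rose. Cd80, a ligand of the T cell receptors CD28 and CTLA4, was at 0.0632 and 0 FPKM in P53-/- cells and at 12 and 10.3 in WT, and the death receptor gene Tnfrsf10b fell by 1.65. Of 28 interferon and innate immune genes, 3 fell (10.7%) and 0 rose, with 1 called lower in the 2i libraries alone and 1 to 2 with 1 library left out. The 3 include Tap1 and the interferon regulatory factor gene Irf5 (log2 fold change -1.28), whose call was made in 5 of 15 other settings.

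Of 43 germline genes, 6 were higher (14%, against 4.37% of all genes) and 3 lower (6.98%, near the 6.06% of all genes), and 1 was higher and 1 lower in the 2i libraries alone. The synaptonemal complex gene Syce3, the meiotic kinase gene Aurkc, Stk31 and the meiotic cohesin gene Stag3 rose by 1.48, 1.39, 1.26 and 1.04, and the call on Syce3 was made in 6 of 15 other settings. Stag3 was at 23.4 and 30.4 FPKM in P53-/- cells and at 13.5 and 12.4 in WT. Rec8, another meiotic cohesin gene, fell from 27.6 and 24.5 FPKM to 9.72 and 8.58 (log2 fold change -1.50, SE 0.15, adjusted p = 0.0022), and the piRNA factor gene Piwil2 fell by 1.02. None of 10 genes of the 2-cell-like state was called by limma, and 0 had an unadjusted p under 0.05. Among 49 genes of DNA methylation and Polycomb, 5 rose (10.2%, against 4.37% of all genes; 1 in the 2i libraries alone). Dppa3 and the Polycomb genes Pcgf5 (log2 fold change 0.93), Bmi1 (0.89) and Rbbp7 (0.65) were among them. The 2 that fell, Zfp57 and the dioxygenase gene Tet2 (-0.92), were 4.08% of the list, below the 6.06% of all genes. In the 2i libraries alone 0 were lower.

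Among markers of other cell types the highest means were those of the matrix gene Sparc in the primitive endoderm list, 79.4 FPKM, the keratin gene Krt8 in the trophoblast list, 60.1 FPKM, and Tubb3 in the neural list, 23 FPKM. The primitive endoderm list, which includes matrix genes, summed to 87.4 and 73.0 FPKM in P53-/- cells and 134 and 109 in WT, with 2 of 7 tested members called lower, Col4a1 and Col4a2 (log2 fold change -2.26 and -1.36). All 7 had log2 fold changes below 0, with a median of -0.81, and 4 had an unadjusted p under 0.05. Sox17 was at 1.09 FPKM or less in every library. The trophoblast list summed to 70.4 and 68.9 against 132 and 80.6, and 1 of its 8 tested members was called, Krt7, which rose by 2.14 from WT levels under 1 FPKM. The neural progenitor list summed to 28.0 and 22.6 against 34.5 and 31.8 FPKM, and the primitive streak list to 10.4 and 15.3 against 14.9 and 15.6. Of the 5 tested primitive streak genes 0 were called, 4 had log2 fold changes below 0, with a median of -0.89, and 3 had an unadjusted p under 0.05. The part of such cells in the neural result was not tested.

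The effect of P53 loss in 2i was set against that in serum by an interaction term. It passed the thresholds for 17 of 12368 genes (0.137%). Both contrasts use the same fit but no library in common. Id3 was at 24.5 and 25.9 FPKM in P53-/- serum cells and at 19.9 and 20.4 in WT serum cells, with a difference between cultures of -3.08 (SE 0.26, adjusted p = 0.00313). Inhbb was at 52.1 and 68.4 against 41.6 and 45.4 FPKM in serum (interaction -2.49, SE 0.29, adjusted p = 0.0263), and Foxd3 at 11.9 and 18.1 against 8.71 and 9.49 (interaction -2.05, SE 0.28, adjusted p = 0.0634). These 3 genes were lower without P53 in 2i, and in serum their P53-/- libraries lay above WT. Of the mitosis genes named, Ccna2 passed, at 88.0 and 85.8 against 96.9 and 94.0 FPKM in serum (interaction 1.16, SE 0.15, adjusted p = 0.0435), and Pttg1 (adjusted p = 0.293), Cenpa (0.151) and Pbk (0.195) did not.

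Among small RNA genes, 201 were tested, of which 0 were lower (0%) and 8 were higher (3.98%), while 12 had an unadjusted p under 0.05. Of the 201, 72 were at 0 in all 4 2i libraries, passed the filter through the serum libraries alone and could not be called, so the 8 were 6.2% of the 129 with a value above 0. For 7 of the 8 neither WT 2i library had a value above 0. Snora61, which guides pseudouridylation, was at 3325 and 3292 FPKM in P53-/- cells, and Snord37, which guides methylation, at 3615 and 11190, and as each was listed at 0 in WT, no fold is given. Snord45b, AF357426 and DQ267102 were listed at 0 in WT as well, with P53-/- libraries between 960 and 214617 FPKM. In WT serum cells Snora61 was at 6819 and 11030 FPKM and Snord37 at 28428 and 94252. Among the 201 genes, those 72 included, 109 were at 0 in WT library 2, 89 in WT library 1 and 77 and 86 in the P53-/- libraries, and 16 were at 0 in WT library 2 alone. The 90 small RNA genes above 0 in all 4 libraries had a median log2 fold change of -0.05 and no call. Host genes, from whose introns such RNAs are cut, were tested for 28 hosts and 0 were called. The host of Snord45b, Rabggtb, was at 113 and 99.3 FPKM in P53-/- cells and at 115 and 107 in WT.

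The share of genes called differed between chromosomes, a difference that was not tested. On chromosome 5, 78 of 807 genes were higher (9.67%) and 23 lower, with a median log2 fold change of 0.24. On chromosome 12 the numbers were 37 higher and 17 lower of 437 (median 0.26), on chromosome 13 they were 29 and 15 of 477 (median 0.19) and on chromosome 9 they were 50 and 28 of 700 (median 0.14). On chromosome 14, 49 of 414 genes were lower (11.8%) and 7 higher, with a median of -0.18. Libraries of 1 group also differed by whole chromosomes. WT library 1 minus library 2 gave medians from -0.30 on chromosome 12 to 0.31 on chromosome 6, with 0.30 on chromosome 5, and P53-/- library 1 minus library 2 gave 0.33 on chromosome 11. The 4 pairs of a P53-/- and a WT library gave medians from 0.04 to 0.44 on chromosome 5, from 0.05 to 0.38 on chromosome 12, from 0.02 to 0.42 on chromosome 13, from -0.33 to -0.05 on chromosome 14 and from 0.11 to 0.19 on chromosome 9. After each library was centred on the median of every chromosome, chromosome 5 held 29 higher and 50 lower genes and chromosome 14 held 16 and 38, while 43 P53 targets were called lower and 22 mitosis genes higher. Of the 169 named genes 16 lost their call, Ephb4, Psph, Gmnn, Fzd5, Il6st, Anxa1, Tubb3 and P4ha2 among them, and 0 genes of the axon guidance and angiogenesis lists were then higher. The cause of these chromosome-wide differences was not tested.

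**Figure D5:**
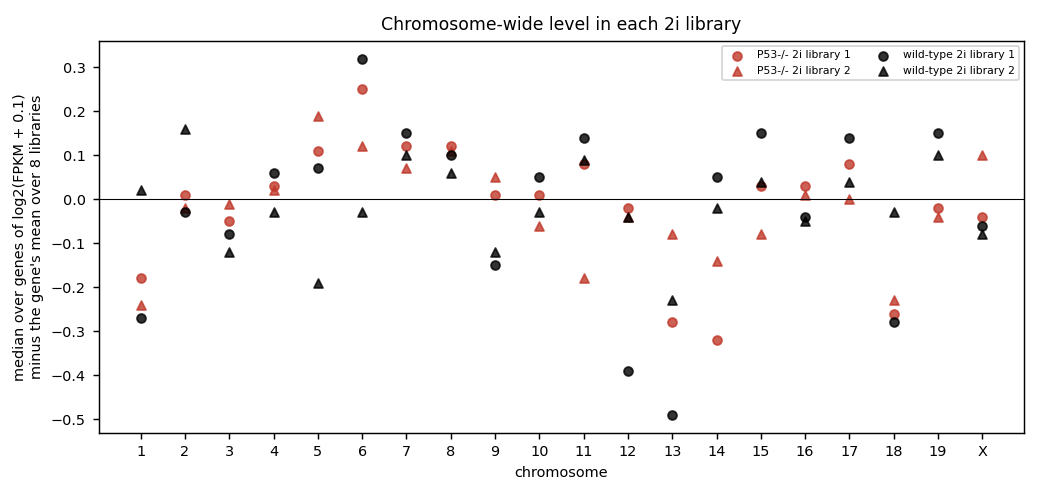
Median over the tested genes of each chromosome of log2(FPKM + 0.1) minus the gene's mean over the 8 libraries, for each 2i library. On chromosome 5 WT library 2 lies below the other 3 libraries, and on chromosome 12 WT library 1 does.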

How the data were processed

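RNA-seq libraries of total RNA depleted of ribosomal RNA were made by a stranded protocol from G1-sorted cells. The authors deposited a table of FPKM values with gene symbols in lines and libraries in columns. STAR, Cufflinks and DESeq2 and the build mm9 stand in the submitters' processing notes, with no version or role, and whether counting used strand is not given in the sources used here. The columns name genotype and culture only, so libraries were grouped by these names. P21-/- samples and the WT 2i samples of that set were not analysed here.

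Of 24881 symbols, 99.8% matched GENCODE M21 or RefSeq by name, from which chromosomes and gene types were taken. The 12572 genes that averaged 0.5 FPKM or more over 8 libraries were tested as log2(FPKM + 0.1) with limma 3.58.1 (R 4.3.3). A single fit held the 4 groups of 2 libraries (4 residual and 3.8 prior degrees of freedom), with a trended eBayes prior and Benjamini-Hochberg adjustment over all genes tested. Calls needed a fold change above 1.5 together with an adjusted p below 0.1. FPKM values are not counts, so no count model was used, and depth gives no counting interval. The script was tested on simulated data. With 2 libraries a group, an exact test of a single gene cannot pass 0.05.

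Named genes were Trp53, the 12 largest falls and rises among called genes with a mean of at least 1 FPKM in 2i and separate groups, up to 4 called members per direction of each of 40 gene lists, up to 5 small RNA genes per direction, and uncalled list members chosen for their function. Some members that the rule selects are not reported here. Members and lists were chosen with earlier results of these data known, so list counts are descriptions. Promoters came from RefSeq (GRCm38.p6), for 9762 of the 12368 genes. Alternatives covered the pseudocount (1 and 0.01), the filter, scaling, the prior, the threshold, the 2i libraries alone, centring by chromosome and each library left out.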

Additional observations from a re-analysis of the deposited data

Results flagged for a closer look

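The following differences between cultures passed the thresholds of the limma interaction term, among genes named in the 2i comparison. Adam23, a member of the ADAM family without protease activity, was at 0.0962 and 0.0856 FPKM in P53-/- and 6.52 and 5.69 in WT 2i cells, and at 14.8 and 16.9 against 24.6 and 26.1 in serum (adjusted p = 0.000317). Pvt1 had serum values of 6.5 and 5.09 against 10.7 and 11.3 FPKM (adjusted p = 0.00178), and Dapk1, a death-associated kinase gene, was at 0.205 and 0.135 against 3.84 and 5.77 in 2i and 5.14 and 5.62 against 8.17 and 8.73 in serum (adjusted p = 0.0109). Anxa8 was near 0 in all serum libraries, at most 0.457 FPKM, so its difference (adjusted p = 0.0947) had little room in serum. The interaction had an adjusted p of 0.00313 for Id3, 0.0263 for Inhbb, 0.0634 for Foxd3 and 0.0435 for Ccna2.

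For small RNA genes the same term passed for Snord45b (adjusted p = 0.000317), Snord37 (0.000401), Snora61 (1.2e-06), AF357426 (0.00911) and DQ267102 (0.000847). All 5 were at 0 in each WT 2i library and above 0 in all 4 serum libraries. They were named for those zeros, which also set the size and the spread of the term, so the p-values restate the zeros and support nothing further. Groups of 2 libraries are too small to single out a library by its distance from the others. No explanation was weighed.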

How the results depend on the processing

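No paired analysis was possible because the columns carry no replicate numbers, so the fit with a replicate block was not run. The number of lower genes, 749, was 134 in the fit of the 2i libraries alone, 457 at an adjusted p under 0.05 and 324 to 611 with 1 library left out. The number of higher genes, 540, was 52, 306 and 155 to 601 in the same settings, and the lowest of both ranges came without P53-/- library 2. The lone library left in a group is then assumed to vary like the others. Small RNA genes called lower were 6 instead of 0 under quantile normalization and 0 to 1 with 1 library left out, and those called higher were 8 to 22, the 22 without WT library 1. P53 targets called lower were 27 in the 2i libraries alone, and mitosis genes called higher were 3 there and 11 to 28 with 1 library left out. The median log2 fold change of chromosome 9 ran from 0.12 to 0.19 with 1 library left out, those of chromosomes 5 and 12 from 0.09 to 0.39, that of chromosome 13 from 0.07 to 0.31 and that of chromosome 14 from -0.29 to -0.08. Of 2523 recomputed values of 169 named genes, 2005 kept their call, 518 lost it and 0 reversed. Of the losses, 111 came in the 2i libraries alone, 68 and 74 without P53-/- library 1 and 2, 54 and 44 without WT library 1 and 2, and 16 with values centred on chromosome medians. The causes were not tested. Depth is known only up to a common factor, and genes near 0 carry no counting error here.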

Other observations

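Over all tested genes 6.06% were lower and 4.37% higher, and the shares of the groups that follow are set beside these without a test. None of 79 cytoplasmic ribosomal protein genes was called by limma, and 2 had an unadjusted p under 0.05. Of 59 genes of ribosome biogenesis, Utp18, of the small subunit processome, rose by 0.65 on the log2 scale (1.69% of the list) and 0 fell. Of 75 genes of oxidative phosphorylation 1 fell (1.33%), the copper chaperone gene Sco2, from 15.3 and 12.7 FPKM in WT to 8.15 and 5.49 in P53-/- cells (log2 fold change -1.05, adjusted p = 0.0596, limma). Of 41 genes of cholesterol and fatty acid synthesis 1 fell (2.44%), the squalene synthase gene Fdft1, from 71.9 and 65.9 to 37.1 and 35.0 FPKM (log2 fold change -0.93, SE 0.12, adjusted p = 0.00548). Of 46 genes of glycolysis and hypoxia, 3 rose (6.52%) and 2 fell (4.35%), near the shares of all genes, with 0 higher and 1 lower in the 2i libraries alone. The lactate dehydrogenase gene Ldhb rose by 1.22 and the mitophagy gene Bnip3 by 1.0, and the prolyl hydroxylase gene P4ha2 fell by 0.73.

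Of 39 genes of the ATF4 response and serine synthesis, 4 fell (10.3%) and 2 rose (5.13%), with 2 and 2 in the 2i libraries alone. The transaminase gene Gpt2 was at 54.1 and 51.4 FPKM in P53-/- cells and at 27.8 and 26.1 in WT (log2 fold change 0.97, SE 0.15, adjusted p = 0.0124), and Psph, the last enzyme of serine synthesis, rose by 0.73. Sesn2, a sensor of leucine and a P53 target, fell from 27.0 and 25.1 to 11.5 and 8.75 FPKM. Of 47 autophagy and lysosome genes, 3 fell (6.38%) and 1 rose (2.13%), with 0 lower and 1 higher in the 2i libraries alone. The cathepsin gene Ctsf fell by 1.75, Uvrag by 0.68 and the lysosomal factor gene Tfeb by 0.60, and the hexosaminidase gene Hexa rose by 0.85. The call on Tfeb was made in 4 of 15 other settings. Of 42 long non-coding RNA genes, 5 fell (11.9%; 1 in the 2i libraries alone) and 0 rose. The nuclear RNA gene Malat1 was at 157 and 162 FPKM in P53-/- cells and at 435 and 318 in WT (log2 fold change -1.22, SE 0.17, adjusted p = 0.00886), and its neighbour Neat1 fell by 1.19. Of 36 imprinted genes, 4 fell (11.1%) and 0 rose, with 0 called lower in the 2i libraries alone and 1 to 6 with 1 library left out. Mest was at 11.3 and 16.2 FPKM against 66.0 and 30.6 in WT. None of 15 Hox genes was called, and 1 had an unadjusted p under 0.05.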
